A study of Mus musculus with 6 samples.

Results

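The G alpha subunits are the nucleotide-binding part of the heterotrimeric G proteins, and 10 mouse G alpha genes were examined here in heart RNA. The members were taken by name from the array annotation, as every probe set (a group of short probes that reads a transcript) assigned to exactly 1 of these genes, which gave 39 probe sets for 10 of 18193 annotated genes. The Gq class was Gnaq, Gna11 and Gna14, the G12/13 class Gna12 and Gna13, the Gi/o class Gnai1, Gnai2, Gnai3 and Gnao1, and the Gs class Gnas. The members were chosen by gene name, but the family itself was selected on a measured value, the log2 difference of Gnao1 between the groups compared here, so the values of Gnao1 are a description and carry no test.

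The series measured RNA of mouse heart tissue on 6 Affymetrix expression arrays. Of these, 3 came from C57BL/6 mice that overexpress hAT1R, the human type 1 receptor for the pressor hormone angiotensin II, and 3 from normal C57BL/6 mice. Age and sex were matched per the series design text, which the Xist counts below do not bear out for sex. The labels give no ages, no promoter for the transgene and no number of founder lines. Values are on a log2 scale, where a difference of 1 is a doubling, and nothing in the labels ties an array to an animal of its own, so errors and p-values cover the spread between these arrays, part of which may be technical.

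A G alpha subunit holds GDP at rest. A receptor that has bound its ligand makes it exchange GDP for GTP and separate from the G beta and gamma subunits, and both parts then act on effectors until the GTP is hydrolysed. Gs stimulates adenylyl cyclase and is the route by which beta-adrenergic receptors raise heart rate and force. Gi proteins inhibit adenylyl cyclase and release beta-gamma dimers that open the atrial potassium channel under vagal tone. Gq activates phospholipase C beta and is the main partner of the angiotensin type 1 receptor, and G12/13 proteins activate RhoA through exchange factors. Go, the product of Gnao1, is abundant in neurons and is also found in cardiac myocytes.

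The record of the instrument did not carry the group names of the sample labels. Its chip lot field held the word control on all 3 arrays labelled transgenic and transgene on all 3 labelled non-transgenic, so taking those words instead would turn every sign given here. No probe set used here was assigned to the human receptor, and Agtr1a, the mouse receptor gene, averaged 9.93 on the arrays labelled transgenic and 9.99 on the others, so the receptor could not check the labels. Arrays correlated at 0.9961 to 0.9967 within the transgenic group, 0.9952 to 0.9966 within the other and 0.9933 to 0.9961 between them. The 3 arrays labelled transgenic and non-transgenic array 1 were washed on fluidics station 2 and the other 2 on station 3. A difference with station blocked, given below, thus sets the transgenic arrays against non-transgenic array 1 alone. All transgenic arrays were scanned first, so scan order and group cannot be told apart. Xist, an RNA of female cells, was above log2 6 on 2 of the 3 arrays labelled transgenic and on 1 of the 3 others. By this RNA the groups were not alike in sex, against the matching given in the design text. All 8 cardiomyocyte markers on the list, such as Myh6, Tnnt2 and Ryr2, passed the brightness filter described next.

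Of the 39 probe sets, 27 passed the filter, a mean over the 6 arrays above the median probe set at log2 3.285, and 12 did not. Of the 10 genes 9 had a probe set that passed. The exception was Gna14, a Gq class member of restricted expression, whose 3 probe sets averaged 2.45, 2.18 and 2.04 on the arrays labelled transgenic and 2.44, 2.17 and 2.02 on the others. Where several passed, the brightest stands for the gene below, and levels are not compared between probe sets because each binds with its own strength. The probe sets that stand for Gnai1, Gna13 and Gnas, and 1450097_s_at of Gna12, carry a suffix that marks probes shared by related sequences.

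Upstream sequence is shown for the members that differed most between the groups in each direction, Gnao1 and Gnai1. RefSeq entries for the 250 bases before the gene start, build GRCm38.p6, were matched for 9 members, with 12 start sites in all, and none was held for Gnai2. Both strands were searched for the GC box GGGCGG, the TATA box TATAAA, the cAMP response element TGACGTCA, the AP-1 site TGANTCA, the MCAT element CATTCC, the GATA site AGATAA, and the left and right parts TTCAGCACC and GACAGCGCC of the RE1 element, which is bound by the repressor REST. Capitals mark a match to any of these on either strand, and overlapping matches are joined.
Gnao1, chr8:93810588-93810837, plus strand: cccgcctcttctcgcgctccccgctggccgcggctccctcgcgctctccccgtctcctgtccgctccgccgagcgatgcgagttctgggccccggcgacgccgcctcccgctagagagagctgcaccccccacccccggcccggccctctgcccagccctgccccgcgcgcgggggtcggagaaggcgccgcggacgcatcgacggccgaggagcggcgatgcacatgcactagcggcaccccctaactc
Gnai1, chr5:18360414-18360663, minus strand: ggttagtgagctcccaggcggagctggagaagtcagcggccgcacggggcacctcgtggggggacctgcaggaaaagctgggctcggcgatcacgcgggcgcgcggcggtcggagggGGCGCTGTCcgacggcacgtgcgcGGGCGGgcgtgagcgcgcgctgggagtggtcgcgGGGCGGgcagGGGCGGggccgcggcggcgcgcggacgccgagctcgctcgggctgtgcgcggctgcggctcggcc
The Gnao1 window had none of these letters, at 76.4% G and C, where the median over 32851 windows of this length was 52.4%. The Gnai1 window had 3 GC boxes, present in 32.7% of all windows, and 1 match to the right part of the RE1 element, present in 0.237%, with no match to the left part. Gnas has several start sites, and 3 of its 4 windows held TTTATA, the TATA box letters on the opposite strand, where 12.4% of all windows held them on either strand. Of these windows 2 overlap by 231 bases and share the match, so there were 2 places in all. A match is only a run of letters, and no binding was measured.

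Gnao1 was the member with the largest difference. Its probe set 1421152_a_at, which reads several transcripts of the gene, was at 7.80, 7.97 and 8.22 on the arrays labelled transgenic and at 6.36, 6.72 and 6.24 on the non-transgenic ones. The groups did not overlap, and 1.08 separated the lowest transgenic from the highest non-transgenic value. The means were 7.99 ± 0.21 and 6.44 ± 0.25 (SD, n = 3), a difference of 1.55 ± 0.162 (SE) or 2.94-fold, which ranked 30 from the top among 11016 genes. The other 2 Gnao1 probe sets lay below the filter. One, 1448031_at, was at 2.64, 2.67 and 2.65 on the arrays labelled transgenic and at 2.95, 2.71 and 2.91 on the others, a difference of -0.20 in the opposite direction between groups that did not overlap. The other, 1460383_at, stayed between 2.28 and 2.33. The higher Gnao1 level thus rests on 1 probe set of 3, and the annotation does not say which transcript ends the dim pair reads.

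Gnai1, which encodes an alpha subunit that inhibits adenylyl cyclase, was on the opposite side. Its only probe set that passed, 1454959_s_at, was at 4.95, 5.20 and 4.99 on the arrays labelled transgenic and at 5.80, 6.08 and 5.44 on the non-transgenic ones. All transgenic values were below all others, with a gap of 0.24. The difference was -0.73 ± 0.172 (SE), with a 95% interval from -1.14 to -0.31, and it did not pass in limma's moderated test over all probe sets (adjusted p = 0.141, and between 0.0957 and 0.354 in the other settings). The suffix of this probe set marks probes shared by related sequences, and both other Gnai1 probe sets were below the filter, with differences of -0.025 and -0.13.

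The remaining Gi proteins differed little. Gnai2, the Gi gene whose product mediates much of the muscarinic slowing of the heart, was at 10.06, 10.16 and 10.32 on the arrays labelled transgenic against 10.27, 10.11 and 10.15. These values interleaved, at a difference of 0.0021 with an interval from -0.22 to 0.23 (limma, adjusted p = 0.994), and the gene's second probe set was at -0.012. With station blocked it was at -0.09. Gnai3, a broadly expressed Gi subunit, was at 7.94, 7.85 and 8.03 against 7.76, 7.79 and 7.74. Its groups did not overlap, but the difference of 0.17 ± 0.0724 (SE) had an interval from -0.0028 to 0.35 and did not pass (limma, adjusted p = 0.311), and a dim second probe set was at 0.00092.

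**Figure D1:**
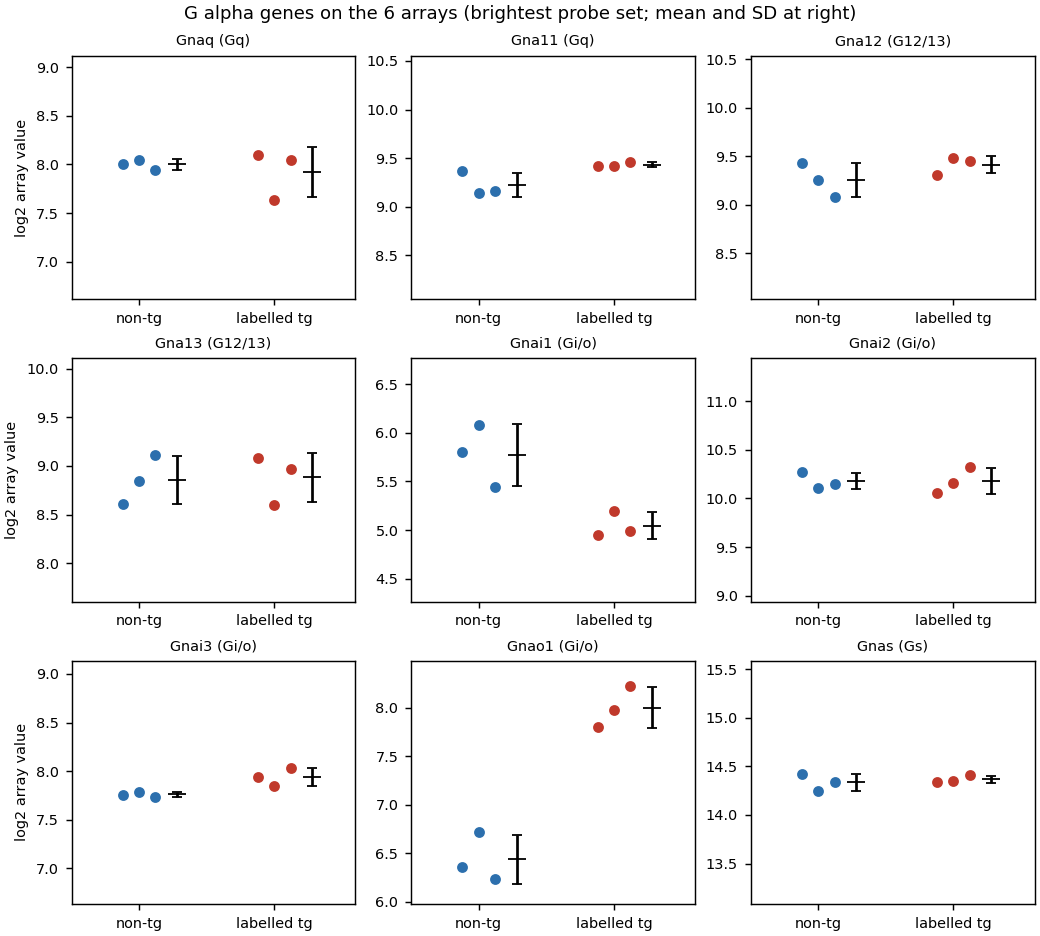
Log2 array values of the 9 G alpha genes with a probe set above the filter, 1 panel per gene and 1 point per array, with the group mean and SD (n = 3) beside the points. Each panel spans the same log2 range. Gnao1 is higher and Gnai1 lower on all 3 arrays labelled transgenic. Gna11 and Gnai3 are also higher on all 3, by small gaps of 0.052 and 0.062. The groups of the remaining genes overlap.

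In the Gq class, Gnaq encodes the subunit that couples the angiotensin, endothelin and alpha-1 adrenergic receptors to phospholipase C. It was at 8.10, 7.63 and 8.05 on the arrays labelled transgenic and at 8.01, 8.05 and 7.94 on the others. The groups overlapped, with transgenic array 2 the lowest of all, and the difference was -0.071 with an interval from -0.40 to 0.26 (limma, adjusted p = 0.841). Over the 6 Gnaq probe sets above the filter the differences ran from -0.071 to 0.074, 2 above and 4 below 0. Gna11, the close relative of Gnaq with the same effectors, was at 9.42, 9.42 and 9.46 against 9.37, 9.14 and 9.16. All transgenic values were the higher ones, by a gap of 0.052, and the difference of 0.21 ± 0.0847 (SE) did not pass over all probe sets (limma, adjusted p = 0.291). Non-transgenic array 1, washed on the station of the transgenic arrays, lay nearest to them. With station blocked the comparison is with that array alone, and the difference was 0.064. The second Gna11 probe set was at 0.08.

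Gna12 and Gna13 encode the subunits that act on RhoA through exchange factors. The brightest Gna12 probe set was at 9.31, 9.48 and 9.45 on the arrays labelled transgenic and at 9.43, 9.26 and 9.08 on the others. These groups overlapped, at a difference of 0.15 with an interval from -0.11 to 0.42 (limma, adjusted p = 0.54), and the sign turned with the station as a block, to -0.019. A second Gna12 probe set, 1450097_s_at, was at 8.86, 8.98 and 8.97 against 8.71, 8.62 and 8.66. There the groups did not overlap, and the difference of 0.28 ± 0.07 (SE) had the second smallest p-value of the members other than Gnao1 but did not pass (limma, adjusted p = 0.153). Gna13 values were 9.08, 8.60 and 8.97 against 8.61, 8.85 and 9.11, which interleaved, at a difference of 0.025 with an interval from -0.40 to 0.45 (limma, adjusted p = 0.96), and at 0.27 with station blocked. All 7 Gna13 probe sets had a difference above 0, from 0.025 to 0.35, but none passed, they share 1 gene, and quantile normalization turned the sign of 2, to -0.0015 and -0.00039, the station block that of another, to -0.034, and array weights or the Xist level that of the brightest, to -0.07 and -0.042.

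Gnas, the single Gs gene, was at 14.34, 14.35 and 14.41 on the arrays labelled transgenic and at 14.42, 14.25 and 14.34 on the others. The values overlapped, at a difference of 0.029 with an interval from -0.15 to 0.21 (limma, adjusted p = 0.885), and the sign turned with station blocked, to -0.053. This probe set was bright, at most 14.42, where the highest value of any array lay between 15.903 and 16.05. Whether a small rise could be measured at that level was not tested. Of the other 4 Gnas probe sets, 1 passed the filter, at -0.015, and 3 were dim, between 2.17 and 2.90. The locus makes several overlapping and imprinted transcripts, and the annotation does not say which of them each probe set reads.

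None of the 8 measured members other than Gnao1 passed in limma, where 0.563% of the 11016 genes did, and 2 were at an unadjusted p under 0.05, Gna11 and Gnai1, beside 18.5% of all genes. By probe set, none of 26 passed, where 0.218% of 22518 probe sets did, and 3 were at an unadjusted p under 0.05, beside 16.4% of all. The groups did not overlap at 4 of these 26 probe sets (15.4%), 3 higher and 1 lower, beside 23% of all probe sets tested, 13.2% higher and 9.78% lower. A difference above 0 was found in 18 of the 26 (69.2%), beside 52.5% of all. With Gnao1 counted, 1 G alpha gene passed, and nothing is read from that count because the gene was chosen for its difference.

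**Figure D2:**
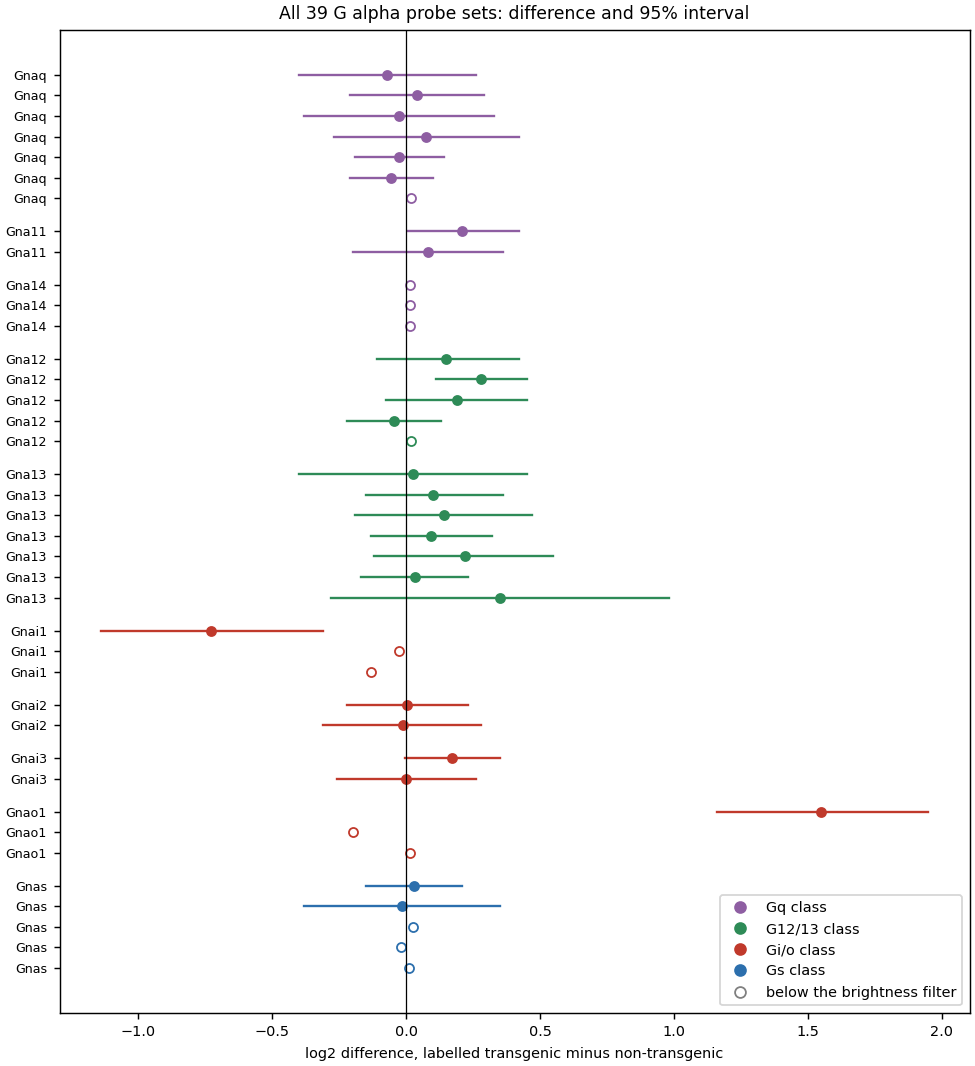
Log2 difference (labelled transgenic minus non-transgenic) of all 39 G alpha probe sets, coloured by class. Lines are 95% intervals from limma for the 27 that passed the filter, not adjusted for the number of tests, and open circles are the 12 that did not. Only the brightest probe sets of Gnao1 (1.55) and Gnai1 (-0.73) lie beyond 0.5 in size.

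By class, the median difference over measured genes was 0.071 for Gq (2 genes), 0.089 for G12/13 (2 genes), 0.088 for Gi/o (4 genes) and 0.029 for Gs (1 gene), beside 0.00985 over all genes. Without Gnao1, the gene the family was selected on, the Gi/o median was 0.0021 and the class ran from -0.73 to 0.17, a span of 0.90 over 3 genes. The 2 genes of Gq spanned 0.28 and the 2 of G12/13 spanned 0.13. With station blocked the medians were -0.0065 for Gq, 0.12 for G12/13, 0.044 for Gi/o and -0.053 for Gs. With 1 array left out the Gq median ran from 0.031 without transgenic array 1 to 0.15 without transgenic array 2, and that of Gi/o fell as low as 0.03 without transgenic array 3. These medians and spans were not tested. All 7 measured members other than Gnao1 and Gnai1 differed by less than 0.25 by their brightest probe set, and the 95% interval lay within 0.5 on either side of 0 in each of the 7.

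Of the 18 alternatives 6 change only the test and leave the differences of Gnao1 and Gnai1 as they are. In the 6 others that kept all arrays or those of station 2, Gnao1 was at 1.49 to 1.64 and Gnai1 at -0.76 to -0.66. With 1 array left out Gnao1 was at 1.44 to 1.69 and Gnai1 at -0.89 to -0.57, where groups that do not overlap fix the sign. Gnai1 passed in 0 of the 18. With the station as a block Gnao1 and Gnai1 were at 1.64 and -0.75. Station 2 alone gave the same values, because both settings compare with non-transgenic array 1 alone, so they count as 1 estimate. With the Xist level as a covariate they were at 1.49 and -0.76.

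**Figure D3:**
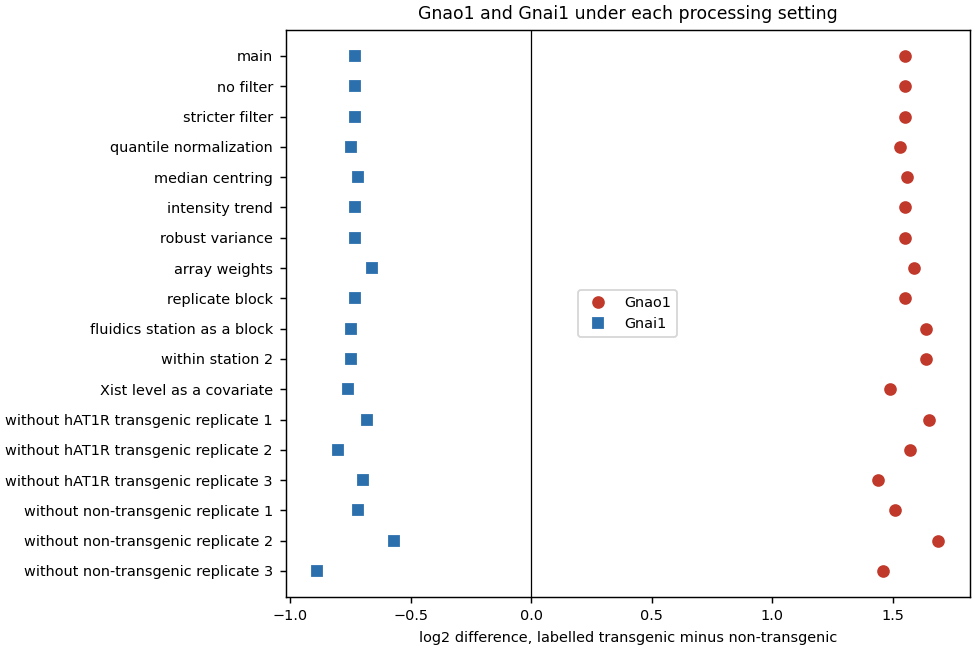
Log2 difference (labelled transgenic minus non-transgenic) of Gnao1 (circles) and Gnai1 (squares) under the setting reported and each alternative except the mean of probe sets. Several of the alternatives shown leave both differences as they are. The station block and station 2 alone are the same estimate, against non-transgenic array 1 alone. Gnao1 lies between 1.44 and 1.69 and Gnai1 between -0.89 and -0.57.

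Of the 12 member probe sets below the filter, 8 varied by less than 0.1 over the 6 arrays, with differences between the groups from -0.019 to 0.017, and 7 of the 8 were lowest on non-transgenic array 1. Among all probe sets of the arrays 14051 below the filter were as flat, and 94.1% of them were lowest on that array. All 3 Gna14 probe sets belong to these.

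Markers of other cell types are given beside the Gnao1 difference, and their part in it was not tested. In bulk tissue fewer cells of a type and less RNA per cell cannot be told apart. Of the atrial myocyte markers 5 of 8 passed the filter. Nppa, the atrial natriuretic peptide gene that also returns in stressed ventricles, rose by 2.19 (limma, adjusted p = 0.015). It did not pass with the replicate block, without transgenic array 2 or 3, or without non-transgenic array 2 or 3. It did pass with no filter, with the Xist level as a covariate, and without transgenic array 1 or non-transgenic array 1. With station blocked, and likewise with station 2 alone, the Nppa difference was 1.85. For station 2 alone no pass is given, because the comparison is with non-transgenic array 1 alone. These alternatives for Nppa were added after seeing the data. The 4 other markers did not pass. Dkk3 was at 0.69, Pam at 0.011 and Myl4 at -0.12. Kcnj3, which is also on the list of Gi and Go effectors, was at -0.82. The median of the 5 markers was 0.011. The summed linear level of the atrial list was 22524 to 26819 on the arrays labelled transgenic and 4966 to 7507 on the others. Nppa carried that sum, and without it the order turned, at 429 to 619 against 648 to 881. Sln, Myl7 and Bmp10 lay below the filter. Of 11 neuron and Schwann cell markers 5 passed the filter, 4 of the 5 were above 0 and none passed the test, with sums from 295 to 384 against 233 to 282 and with Snap25, Syt1, Nefl, Nefm, Th and S100b below the filter. Fibroblast and macrophage markers were each above 0 in 8 of 9, with no overlap of their sums, 16811 to 19743 against 12947 to 13986 and 6141 to 7222 against 4630 to 5155. Their medians were 0.68 and 0.46, and none of either list passed (limma, 7 and 6 of the 9 at an unadjusted p under 0.05, beside 18.5% of all genes). Cardiomyocyte markers had a median of -0.032, and their sums overlapped, at 281827 to 287445 against 284090 to 294261. Endothelial and smooth muscle markers were above 0 in 5 of 7 and 1 of 7, with medians of 0.039 and -0.18, and their sums overlapped between the groups. Of the lung, erythroid and adipocyte lists 1 of 5, 2 of 3 and 1 of 4 markers passed the filter, with medians of 0.21, -0.11 and -0.25. Sftpc, Sftpb, Sftpa1 and Scgb1a1 of the lung list lay below it, as did Adipoq, Lep and Retn of the adipocyte list. The adipocyte sums were 19753 to 20843 on the arrays labelled transgenic and 21733 to 25384 on the others. Fabp4, the only marker of that list above the filter, carried these sums, so they describe 1 gene. None of these 5 lists had a gene that passed in limma, and 0, 2, 0, 0 and 1 of their genes were at an unadjusted p under 0.05, again beside 18.5%.

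The other genes of G protein signalling were taken from 10 lists with 93 genes, of which 54 had a probe set above the filter. None of the 54 rose or fell in limma's test over all genes, beside 0.563% of all genes, and 16 (29.6%) were at an unadjusted p under 0.05, beside 18.5% of all. Their median difference was 0.013 and 28 were above 0. The further G alpha genes Gna15, Gnal, Gnat1, Gnat2 and Gnaz, of blood cells, olfactory neurons, photoreceptors and neurons, were all below the filter, the highest single value being 3.61 for Gnaz.

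Among the partners of the alpha subunits, 4 of 5 G beta genes were above 0, with a median of 0.12. Gnb3, a G beta subunit, was at 5.83, 6.55 and 6.97 on the arrays labelled transgenic and at 5.72, 5.26 and 5.49 on the others, without overlap, a difference of 0.96 ± 0.291 (SE) (limma, adjusted p = 0.17). Gnb1, the next in size, was at 0.21 (limma, adjusted p = 0.329) and at 0.042 with station blocked, and its second probe set was at -0.24. The G gamma list had 4 of 6 above 0 and a median of 0.056. Its Gngt1, a subunit known from photoreceptors, was at -0.60 (limma, adjusted p = 0.249) and at -0.28 with station blocked. The second Gngt1 probe set was at 0.025, so the lower level rests on 1 probe set. Gng12, another G gamma subunit, lay on the other side at 0.30 (limma, adjusted p = 0.313), and at 0.09 with station blocked. Its second probe set was at 0.10. Of the chaperones and modulators 4 of 7 were above 0. Gpsm1, which binds Gi and Go subunits in their GDP form, was at 10.48, 10.49 and 10.36 against 10.88, 11.20 and 10.96, without overlap. Its difference was -0.57 ± 0.103 (SE), 2 further probe sets were at -0.47 and -0.44, and it did not pass (limma, adjusted p = 0.0683, and between 0.0453 and 0.212 in the other settings). Gpsm3 of the same family was at 0.46 (limma, adjusted p = 0.242), in the opposite direction.

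The Gq effectors had a median of 0.00083, with 4 of 8 above 0, and Plcb3, a phospholipase C beta, was at 0.37 (limma, adjusted p = 0.347). It was at 0.72 with station blocked and at 0.19 without non-transgenic array 1. Itpr2, a receptor for inositol trisphosphate, lay below 0 at -0.27 (limma, adjusted p = 0.553), and at 0.19 with station blocked. Of the G12/13 effectors 3 of 6 were above 0, with a median of 0.039, and Rhoa, the small GTPase at the end of this route, was at 11.47, 11.35 and 11.47 against 10.98, 11.11 and 11.00. Those groups did not overlap, at 0.40 ± 0.0738 (SE) (limma, adjusted p = 0.0718, and between 0.0427 and 0.23 in the other settings), and a second probe set was at 0.33. Akap13, an exchange factor for RhoA, was at 0.28 (limma, adjusted p = 0.186), with 2 further probe sets from -0.12 to 0.09. The adenylyl cyclases, targets of Gs and Gi, had 2 of 6 above 0 and a median of -0.14. Adcy7 was at 6.98, 7.23 and 7.82 on the arrays labelled transgenic and at 5.94, 5.16 and 6.18 on the others, a difference of 1.58 ± 0.321 (SE) that did not pass (limma, adjusted p = 0.0897), with a second probe set at 0.93. Adcy6, a main cyclase of cardiac myocytes, was at -0.35 (limma, adjusted p = 0.253).

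Effectors of Gi and Go lay mostly below 0, with 1 of 5 above it and a median of -0.086. Rap1gap, a GTPase-activating protein for Rap1 that binds Go-type subunits, was at 4.65, 5.41 and 5.72 on the arrays labelled transgenic and at 6.61, 6.55 and 6.72 on the others. All transgenic values were the lower ones, at -1.37 ± 0.263 (SE), but the gene did not pass (limma, adjusted p = 0.0787, and between 0.0479 and 0.304 in the other settings). Kcnj3, a subunit of the atrial potassium channel opened by beta-gamma dimers, was at 8.83, 8.28 and 8.04 against 9.52, 9.07 and 9.00. Its difference of -0.82 ± 0.236 (SE) did not pass (limma, adjusted p = 0.158), and 2 further probe sets were at -0.94 and -0.86. Receptors coupled to Gi or Go had 1 of 4 above 0 and a median of -0.17, with S1pr1 at -0.43 (limma, adjusted p = 0.42) and at 0.085 with the station as a block. S1pr3, a second receptor for sphingosine 1-phosphate, was at -0.32 (limma, adjusted p = 0.316) and at -0.49 with station blocked. Receptors coupled to Gq or G12/13 had 5 of 7 above 0 and a median of 0.39, with the endothelin receptor gene Ednrb at 0.58 (limma, adjusted p = 0.16) and at 0.33 with station blocked. The adrenergic receptor gene Adra1b was at -0.52 (limma, adjusted p = 0.501), at -1.19 with station blocked and at -0.18 without non-transgenic array 1.

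**Figure D4:**
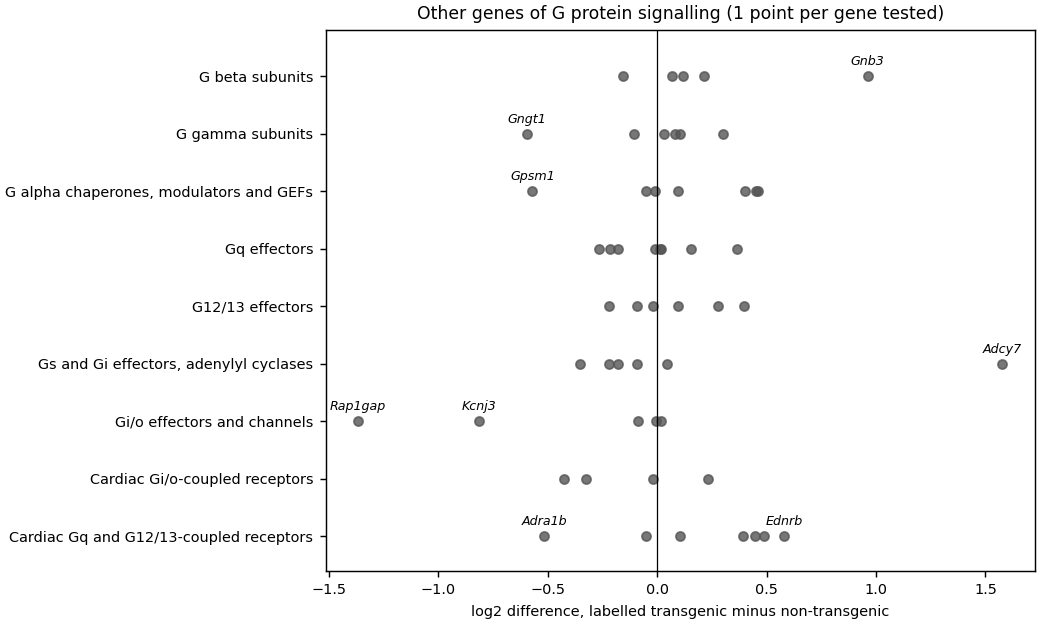
Log2 difference (labelled transgenic minus non-transgenic) of the 54 genes of G protein signalling with a probe set above the filter, by list, 1 point per gene. Named points differ by more than 0.5 in size, none passed over all genes, and Adcy7 (1.58) and Rap1gap (-1.37) lie farthest out.

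The genes whose values followed those of Gnao1 most closely over the 6 arrays were Pde4dip (Pearson's r = 0.9961), Itgbl1 (0.9953), Ctps (0.9949), Jpt1 (0.9939) and Ppie (0.9933), and the most opposite were Arfgef2 (-0.9919), Zfp938 (-0.9910) and Brpf1 (-0.9861). These values describe 6 arrays that fall into 2 groups, and 462 of 11015 genes (4.19%) had an r above 0.9. Among the 5 closest genes the group differences varied widely, from 0.14 for Pde4dip, an anchoring protein of phosphodiesterase, to 1.96 for Itgbl1, a secreted integrin-like protein. Under quantile normalization r was lower in size for some, at 0.949 for Pde4dip, 0.919 for Ppie and -0.832 for Zfp938.

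**Figure D5:**
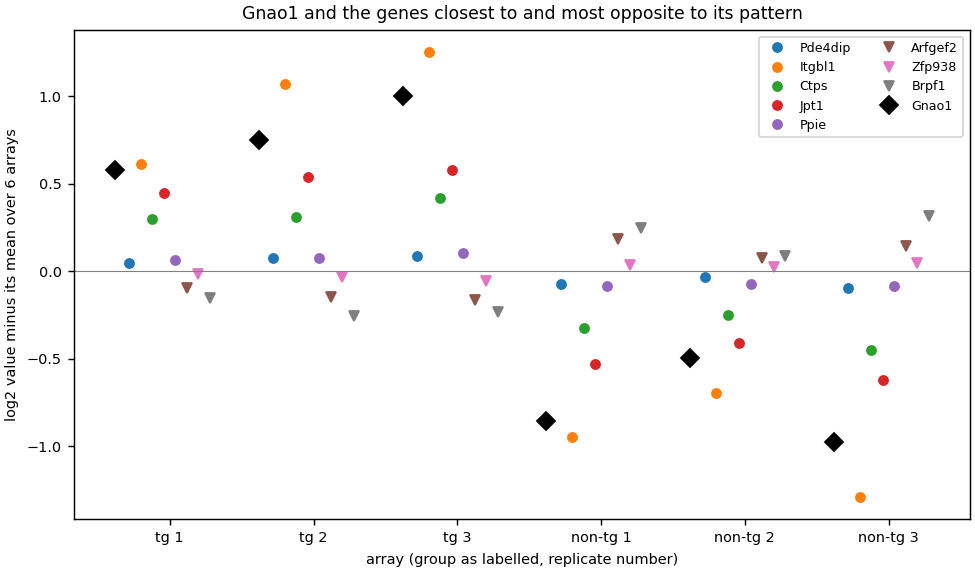
Log2 value minus its mean over the 6 arrays for Gnao1 (diamonds), the 5 genes with the highest correlation to it (circles) and the 3 with the lowest (triangles), 1 point per array, shifted sideways for legibility. All transgenic points of the 5 genes lie above 0 and all non-transgenic ones below. The differences between their group means run from 0.14 (Pde4dip) to 1.96 (Itgbl1).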

How the data were processed

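Mouse heart RNA was measured on 6 Affymetrix arrays from 6 ug of total RNA each, per the labels' protocols. The authors deposited log2 values, for which GCRMA, a background correction and normalization method, is named in the submitters' processing notes. Its version is not given in the sources used here, nor is any later step. Other deposited fields (fluidics station, scan order, chip lot words) came from the instrument records, and none assigned a group. Groups came from the sample titles.

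Of 45101 probe sets 64 controls were left out. Names came from the platform annotation of 2016, with 34945 probe sets of 1 gene, 932 of several and 9160 of none. The brightness filter (mean above the median probe set, log2 3.285) kept 22518 probe sets and, by the brightest for each gene, 11016 genes. limma 3.58.1 in R 4.3.3 (lmFit, eBayes, 2-sided, Benjamini-Hochberg, threshold 0.05) was fitted to both tables. Adjusted p-values of G alpha genes come from the fit on probe sets and those of other genes from the fit on genes. Tested on simulated data, the fit on 22518 probe sets recovered 19.5% of log2 changes of 0.5, 81.4% of 1, 94.9% of 1.5 and 97.5% of 2. Of its calls 5.57% were false. The simulated noise was normal, independent and drawn at limma's moderated variances, with no station, scan or sex effect. Rates on the real arrays may thus differ. The number of arrays limits the precision. No 2 arrays shared more than 0.0178% of values.

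The members and lists were chosen with earlier results of these data known. Named genes were all members, the 2 genes with the largest difference in each list where none passed, and the 5 closest and 3 most opposite to Gnao1. The lists covered G beta and gamma subunits, other G alpha genes, chaperones, effectors, receptors, and markers of cardiomyocytes, atrial myocytes, neurons, fibroblasts, macrophages, endothelium, smooth muscle, lung, erythroid cells and adipocytes. Of 93 pathway genes 10 were not analysed here. Adjusting genes over all probe sets, the alternatives of pathway genes, and the atrial sum without Nppa were added after seeing the data, and the single atrial markers were named after their values were seen.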

Additional observations from a re-analysis of the deposited data

How the results depend on the processing

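The count of calls over the arrays moved with the setting. In the setting reported, 49 probe sets and 62 genes passed, and 25 genes when adjusted over all probe sets, an alternative added after seeing the data. The probe set counts were 15 with no filter, 143 with a stricter one (mean log2 of at least 5), 108 with an intensity trend, 2 with the station as a block, and 0 within station 2 or with the Xist level as a covariate (3771 and 3126 at an unadjusted p under 0.05 in limma). The gene counts under those settings were 21, 185, 180, 20, 0 and 10, with 39 under median centring and 128 with array weights. Leaving out 1 array gave 0 to 75 probe sets and 0 to 80 genes, the highest without transgenic array 1. Dropping non-transgenic array 1 left 5 and 8, and dropping any of the other 4 left 0 probe sets (2532 to 3430 at an unadjusted p under 0.05 in limma). The G alpha count, 1 with Gnao1, was 0 with no filter, the station block or the Xist level. With 1 array left out it was from 0 to 1 (0 in each for probe sets). In the setting reported that count is Gnao1 itself, the gene chosen for its difference. Nothing is read from how the G alpha count moved, here or with the replicate block. Why the counts over the arrays moved was not tested.

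No pairing by replicate number was seen. The correlations of same-numbered deviations were -0.0831, -0.174 and -0.00672, beside -0.0524 to 0.141 for the other pairs. Deviations of 3 arrays sum to 0 within a group, so such values cannot show that the samples were unpaired. With the replicate block, 0 probe sets and 0 genes passed (3324 and 1820 at an unadjusted p under 0.05 in limma), and 0 G alpha genes or probe sets.

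No value that turned its sign had passed. Blocking on station, and likewise station 2 alone, turned 2 dimmer Gnaq probe sets (-0.011 and 0.17), the second Gna11 one (-0.0085), the brightest of Gna12 (-0.019), Gnai2 (-0.09) and Gnas (-0.053), a Gna13 one (-0.034), Itpr2 (0.19) and S1pr1 (0.085), and the Gi/o median without Gnao1 moved to -0.09. With quantile normalization 2 Gna13 probe sets were at -0.0015 and -0.00039 and Gnai2 at -0.0071. With array weights the brightest Gna13 probe set was at -0.07 and the second ones of Gnai2, Gnai3 and Gnas at 0.019, -0.023 and 0.013. With the Xist level as a covariate a Gnaq probe set was at -0.0094, the brightest Gna13 one at -0.042 and the second ones of Gnai3 and Gnas at -0.052 and 0.036. As the mean of probe sets Gnai2 was at -0.0051 and Gnb1 at -0.016. With single arrays left out, 5 Gnaq probe sets ran from -0.16 to 0.077, -0.055 to 0.10, -0.13 to 0.13, -0.029 to 0.21 and -0.069 to 5.7e-05, a Gna12 one from -0.08 to 0.0044, and 3 Gna13 ones from -0.10 to 0.17, -0.0023 to 0.22 and -0.0031 to 0.10. The ranges were -0.068 to 0.063 and -0.12 to 0.10 for Gnai2, -0.094 to 0.10 for the dim Gnai3 probe set, and -0.015 to 0.07 and -0.13 to 0.14 for Gnas. With 3 arrays a group, changes of 0.5 were recovered in 19.5% of simulated cases, so a change of that size in a G alpha gene could be missed.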
